A study of Mus musculus with 10 samples.

Results

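IL-2, IL-7, IL-15 and IL-21 are cytokines that signal through receptors built around the common gamma chain. IL-2 and IL-15 also share the beta chain, which is encoded by Il2rb, and each cytokine is recognised by a further chain encoded by Il2ra, Il7r, Il15ra or Il21r. These receptors signal through the kinases JAK1 and JAK3 to STAT factors, chiefly STAT5, and through STAT3 in the case of IL-21. In skin, IL-7 and IL-15 are made by keratinocytes and other resident cells and sustain memory T cells, IL-15 also sustains natural killer (NK) cells, and IL-2 and IL-21 come mainly from activated T cells.

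The genes of this cytokine axis were taken from skin of C3H/HeJ mice that had received a graft of alopecic skin, a transfer model of alopecia areata (AA). The graft came from a mouse of the same strain with spontaneous disease, and the recipients were unaffected young adults. Treatment was systemic and began at grafting, with baricitinib, an inhibitor of JAK1 and JAK2, or vehicle delivered by implanted pumps. Skin was sampled at week 12 from 5 baricitinib treated and 5 vehicle control mice, with 1 array for each. All 10 arrays came from grafted mice, so the values have no reference from ungrafted skin, which is not analysed here. Whole biopsies were used, in which fewer cells of a type and less RNA per cell cannot be told apart. Of 10 gene symbols sought, 9 were named by the platform annotation, and they were read by 15 of the 45037 probe sets on the array that are not controls. Il2rg, the gene for the common gamma chain, was not among the named probe sets and is not analysed here. A probe set that was annotated to Il2 together with a second gene was left out. Values are log2 expression, so a difference of 1 is a change of 2 times, and every difference is given as baricitinib minus vehicle.

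Vehicle replicate 5 stood apart from the other arrays (median Pearson r with them 0.705, against 0.959 to 0.981 for each other array). Against the mean of vehicle replicates 1 to 4, its probe sets averaging under 5 log2 were higher by a median of 0.78, and its brighter probe sets differed by a median of -0.75. Baricitinib replicate 5 and vehicle replicate 4, although of different groups, correlated best with each other (r = 0.994, the highest of any pair). The study's methods left out 1 vehicle array after quality control, and the labels do not say which, so results are given with all arrays and, where it matters, without vehicle replicate 5. For the transcripts of Gapdh and beta-actin, the excess of 3' over 5' probe set signal, a sign of degraded RNA, was 0.99 to 1.18 log2 on the baricitinib arrays and 1.01 on vehicle replicate 4. It was 3.03, 4.35 and 4.06 on vehicle replicates 1, 3 and 5 and intermediate on vehicle replicate 2, so this measure moved with treatment. With it as a covariate all 15 differences of the axis were negative, 1 of them at an unadjusted p under 0.05, and each adjusted p in limma was 1. Keratinocyte markers (Krt1, Krt5, Krt10 and Krt14) averaged 12.18 to 12.71 log2 on the baricitinib arrays, 12.91 to 13.25 on vehicle replicates 1 to 4 and 12.32 on vehicle replicate 5.

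Across the axis, most probe sets had lower values in baricitinib treated skin, but none passed the test over all probe sets. The difference was negative at 12 of 15 probe sets, with a median of -0.39 against -0.07 over all probe sets tested. Over all 10 arrays the groups did not overlap at 1 of 15 probe sets, where 2.03% of all probe sets were lower and 3.09% higher without overlap. Over replicates 1 to 4 of each group, a choice made after the values were seen, 7 of 15 were lower without overlap, where 7.09% of all probe sets were lower and 6.33% higher. These were 1 probe set each of the receptor genes Il7r, Il21r, Il2ra and Il2rb and of Il2, Il7 and Il21. Il15 and Il15ra, which encode a cytokine and the chain that presents it, overlapped on all their probe sets. Baricitinib replicate 5, left out of this count, was like the other baricitinib arrays in its correlations and 3' excess. It was at vehicle level for Il2, Il2ra, Il2rb and Il21r, so leaving it out helped to make the count. The count is a description only. With limma, 0 of 15 passed an adjusted p of 0.05 (adjusted p 0.249 to 0.929), and 0% of all probe sets did. At an unadjusted p under 0.05 there were 4 of 15, all lower, where 5.62% of all probe sets were lower and 9.21% higher. Without vehicle replicate 5 the lower count was 5 of 15, against 13.5% lower and 14.4% higher among all probe sets, and again 0 of 15 passed the adjusted threshold (adjusted p 0.082 to 0.829), as did 0% of all. No member passed without vehicle replicate 4 or without baricitinib replicate 5 either, where 1.88% and 0.0266% of all probe sets did. With array quality weights, which limma set at 0.0289 for vehicle replicate 5, 2 of 15 passed (Il7r and Il21), where 21.5% of all probe sets did. The 15 probe sets are not independent, since 6 genes were each read by a pair.

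**Figure D1:**
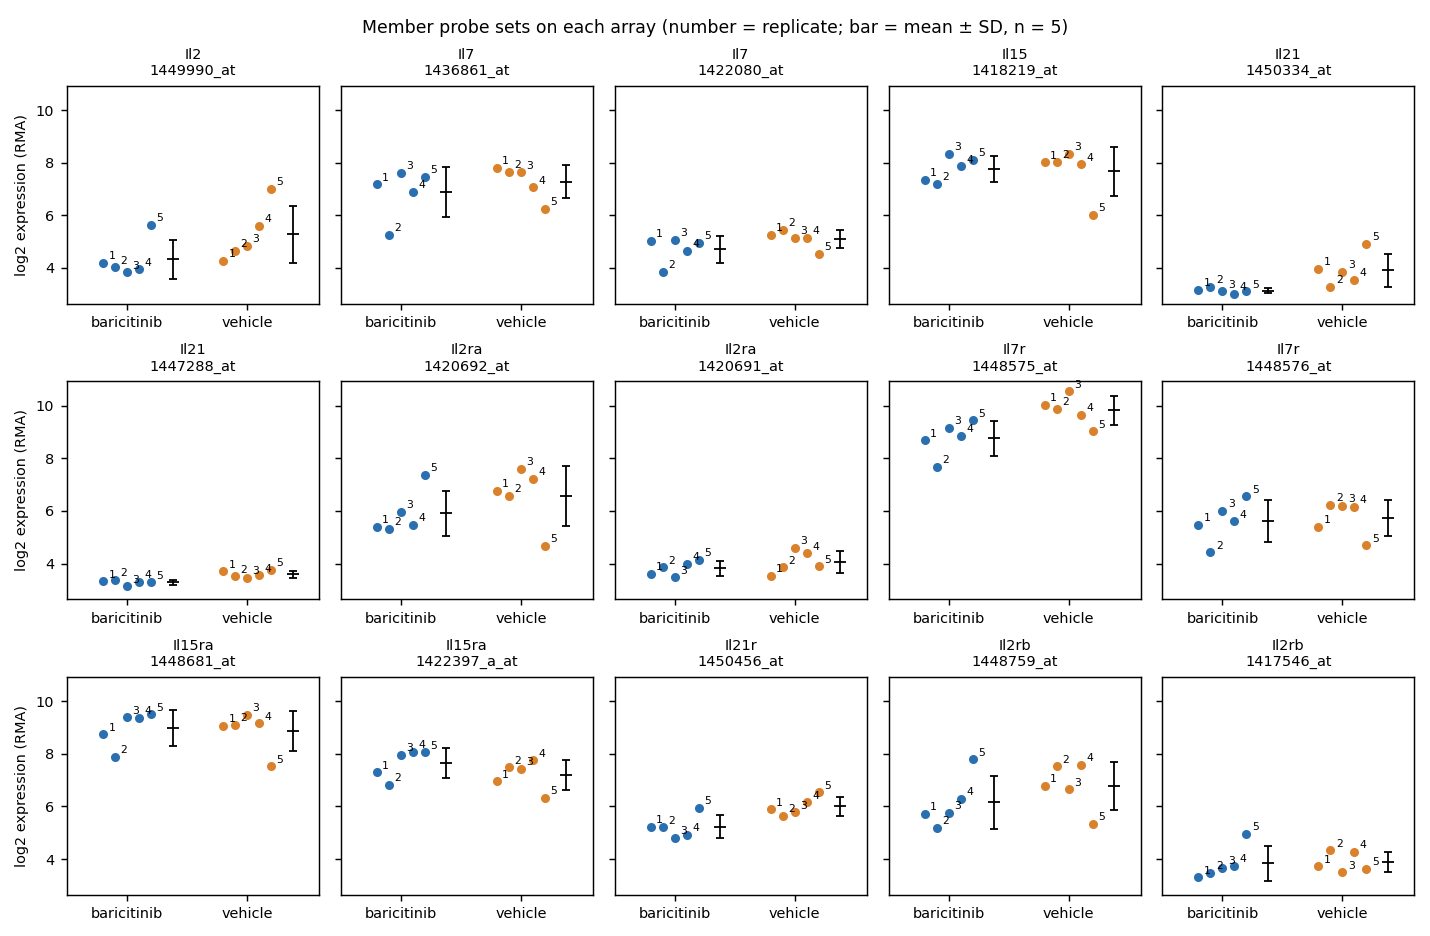
Log2 expression of the 15 probe sets on each array (baricitinib blue, vehicle orange, replicate number beside each point, black bar the group mean ± SD, n = 5). Baricitinib replicate 5 lay at vehicle level for Il2ra (7.38) and Il2rb (7.79), and vehicle replicate 5 lay below the other vehicle arrays for Il15 (6.01).

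Il7r encodes the alpha chain of the IL-7 receptor, which naive and memory T cells need for survival. With all arrays it gave the largest difference of the axis, but Il2 was ahead of it in 5 of the 10 fits that left out 1 array, and Il2rb (-1.59) and Il2ra (-1.11) were ahead of it with the RNA quality covariate. Its brighter probe set (1448575_at) was at 8.68, 7.68, 9.15, 8.86 and 9.44 log2 in baricitinib replicates 1 to 5 and at 10.03, 9.87, 10.55, 9.66 and 9.03 in vehicle replicates 1 to 5. All 5 baricitinib arrays lay below vehicle replicates 1 to 4, and vehicle replicate 5 fell between them. The means were 8.76 ± 0.67 and 9.83 ± 0.55 (SD, n = 5 each), a difference of -1.06 ± 0.36 (SE), or 47.9% of the vehicle level (limma adjusted p = 0.264). Without vehicle replicate 5 the difference was -1.26 ± 0.33 (adjusted p = 0.082), and it stayed between -1.26 and -0.79 when any 1 array was left out. A dimmer Il7r probe set (1448576_at) did not show this separation. It was at 4.42 to 6.56 in baricitinib treated and 4.69 to 6.23 in vehicle control skin, with a difference of -0.12 (95% interval -1.08 to 0.83), so the size of the Il7r difference was not settled between its probe sets.

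The bases upstream of Il7r are shown because its difference was the largest with all arrays. Those of Il2ra and Il21r are shown as other receptor genes with negative differences. The windows of Il2 and Il21, whose differences were also negative, are not shown. Each is the 250 bases before the RefSeq start (build GRCm38.p6), 5′ to 3′ on the strand of the gene, at chr15:9529877-9530126 (minus strand), chr2:11642542-11642791 and chr7:125603179-125603428 (plus strand). Capitals mark the STAT motif TTCNNNGAA, searched on both strands.
Il7r: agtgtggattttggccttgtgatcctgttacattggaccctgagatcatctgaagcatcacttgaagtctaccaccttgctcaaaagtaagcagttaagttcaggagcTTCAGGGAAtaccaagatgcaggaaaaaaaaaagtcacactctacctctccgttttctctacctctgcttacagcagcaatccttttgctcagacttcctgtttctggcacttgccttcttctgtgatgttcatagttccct
Il2ra: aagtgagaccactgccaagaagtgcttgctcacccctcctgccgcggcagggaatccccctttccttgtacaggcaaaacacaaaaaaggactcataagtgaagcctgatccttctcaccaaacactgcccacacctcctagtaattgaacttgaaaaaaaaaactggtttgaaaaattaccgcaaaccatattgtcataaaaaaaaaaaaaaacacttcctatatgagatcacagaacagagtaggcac
Il21r: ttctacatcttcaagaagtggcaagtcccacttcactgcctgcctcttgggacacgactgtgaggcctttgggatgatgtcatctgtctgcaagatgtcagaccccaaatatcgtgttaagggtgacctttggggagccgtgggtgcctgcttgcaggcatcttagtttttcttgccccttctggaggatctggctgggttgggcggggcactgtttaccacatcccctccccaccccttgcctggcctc

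The Il7r window held 1 match, which began 142 bases before the start. Among the 7 windows found for 6 of the 9 measured genes it was the only one with a match, and 0 held the interferon-stimulated response element (GAAA, 2 bases of any kind, GAAA) on either strand. Over 32851 promoters of the same length in the table, 7.02% held the first motif and 2.98% the second. A match of this kind is a description of the letters only.

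Il2ra encodes the high-affinity alpha chain of the IL-2 receptor, found on activated and regulatory T cells. Its brighter probe set (1420692_at) was at 5.40, 5.32, 5.97, 5.46 and 7.38 in baricitinib replicates 1 to 5 and at 6.76, 6.57, 7.60, 7.22 and 4.68 in vehicle replicates 1 to 5. The fifth array of each group was on the other side, so the groups overlapped although replicates 1 to 4 did not. The difference was -0.66 ± 0.58 (SE, limma adjusted p = 0.516) with all arrays and -1.13 ± 0.42 without vehicle replicate 5 (adjusted p = 0.130), and it ran from -1.13 to -0.40 as each array was left out in turn, the smallest without vehicle replicate 3. The other Il2ra probe set (1420691_at) was dim, at 3.47 to 4.59 on all arrays, with a difference of -0.24 (95% interval -0.76 to 0.27). Regulatory T cell markers did not show this order. The 4 genes (Foxp3, Ctla4, Ikzf2 and Tnfrsf18) averaged 7.36 to 8.52 log2 in baricitinib treated and 7.42 to 8.22 in vehicle control skin. With all arrays the difference was negative at 1 gene and positive at 3, and without vehicle replicate 5 negative at 2 and positive at 2. The part of regulatory T cells in the Il2ra values was not tested.

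Il2rb encodes the beta chain shared by the IL-2 and IL-15 receptors and marks NK cells and effector or memory CD8 T cells. Its brighter probe set (1448759_at) was at 5.73, 5.19, 5.76, 6.28 and 7.79 in baricitinib replicates 1 to 5 and at 6.78, 7.53, 6.65, 7.58 and 5.35 in vehicle replicates 1 to 5. The fifth array of each group was again on the other side, with baricitinib replicate 5 the highest of all and vehicle replicate 5 among baricitinib replicates 1 to 4. The difference was -0.62 ± 0.55 (SE, limma adjusted p = 0.517), and -0.98 ± 0.47 without vehicle replicate 5 (adjusted p = 0.206). Without baricitinib replicate 5 it was -1.03 (adjusted p = 0.410), and without baricitinib replicate 2 it was -0.38 (adjusted p = 0.701). The other Il2rb probe set (1417546_at) was at 3.31 to 4.97 with a difference of -0.05 (95% interval -0.77 to 0.67). Baricitinib replicate 5 was the highest there too, and vehicle replicate 5 (3.62) lay among baricitinib replicates 1 to 4. Vehicle replicates 1 to 4 (3.49 to 4.34) overlapped baricitinib replicates 1 to 4 (3.31 to 3.75). This probe set was dim, averaging 3.86 over all arrays, where bacterial control probe sets lay between 1.96 and 4.66.

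Il21r, which encodes a chain of the IL-21 receptor carried by T, B and NK cells, had a single probe set (1450456_at). It was at 5.23, 5.21, 4.81, 4.92 and 5.94 in baricitinib replicates 1 to 5 and at 5.89, 5.64, 5.78, 6.16 and 6.54 in vehicle replicates 1 to 5. Baricitinib replicates 1 to 4 lay below every vehicle array, and baricitinib replicate 5 lay among them. The difference was -0.78 ± 0.25 (SE), and its adjusted p of 0.249 in limma was the lowest of the axis. Without vehicle replicate 5 the difference was -0.65 (adjusted p = 0.116), so that unlike Il2ra and Il2rb it became smaller. B cell markers (Cd79a, Cd79b and Ms4a1) also had negative differences at 3 of 3 genes. They averaged 4.07 to 4.94 in baricitinib treated and 4.59 to 6.24 in vehicle control skin. Vehicle replicate 5 had the highest average, through Ms4a1 (7.27). For Cd79b (5.24) it was the lowest vehicle array, and for Cd79a (6.22) it was below vehicle replicate 2 (6.57). Ms4a1, which encodes CD20, averaged only 3.79 over all arrays. The part of B cells in the Il21r values was not tested.

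**Figure D2:**
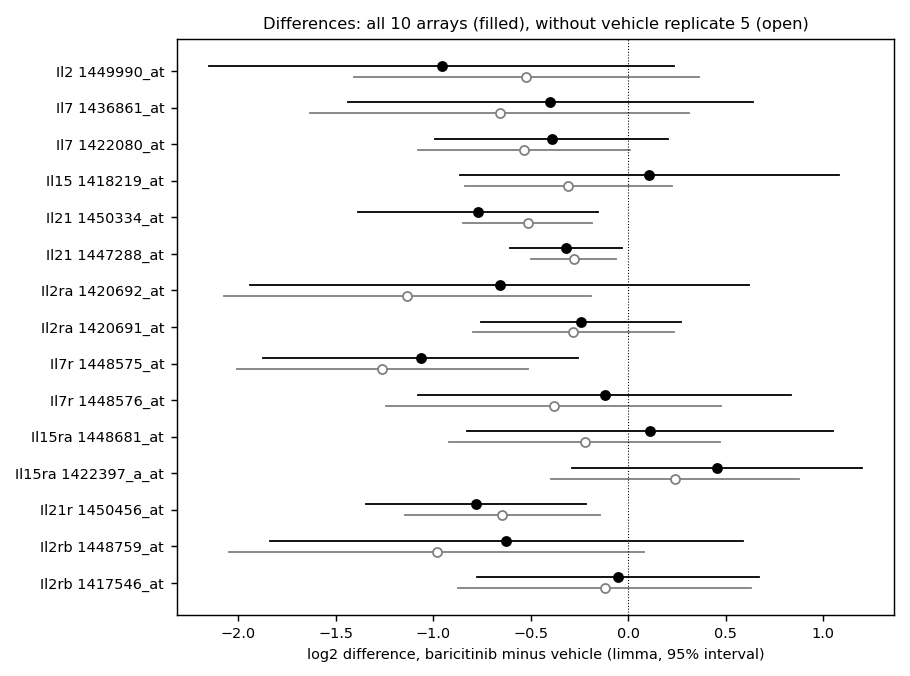
Difference in log2 expression (baricitinib minus vehicle) of each probe set with its 95% interval from limma, with filled points for the fit of 10 arrays and open points for that of 9, vehicle replicate 5 being left out. Intervals for Il15 and Il15ra covered 0 in both fits, and that of the brighter Il7r probe set ran from -1.87 to -0.26 with all arrays.

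Markers of T cells and of cytotoxic and NK cells, which carry several of these receptors, were in a similar order over the arrays. T cell markers (6 of 9 listed genes measured, 5 with a negative difference) averaged 6.38 to 7.62 log2 in baricitinib replicates 1 to 4 and 8.15 to 8.66 in vehicle replicates 1 to 4, while baricitinib replicate 5 was at 8.12 and vehicle replicate 5 at 6.39. Cytotoxic and NK cell markers (7 genes, all with a negative difference) averaged 5.19 to 6.47 and 8.07 to 8.57 on replicates 1 to 4 of the groups, and the fifth arrays were at 8.25 (baricitinib) and 5.37 (vehicle). In both lists baricitinib replicate 5 was near or within the range of vehicle replicates 1 to 4, and vehicle replicate 5 was within that of baricitinib replicates 1 to 4, as for Il2rb. Cd3e, which encodes a chain of the T cell receptor complex, averaged 10.25 and 10.80, and Klrk1, which encodes the receptor NKG2D, 4.91 and 5.74 in baricitinib treated and vehicle control skin. None of these marker genes passed the adjusted threshold in limma. The lowest of the lists were Cd5 and Ncr1, which averaged 4.50 and 4.11 over all arrays. The contribution of lymphocyte number to the receptor values was not tested.

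**Figure D3:**
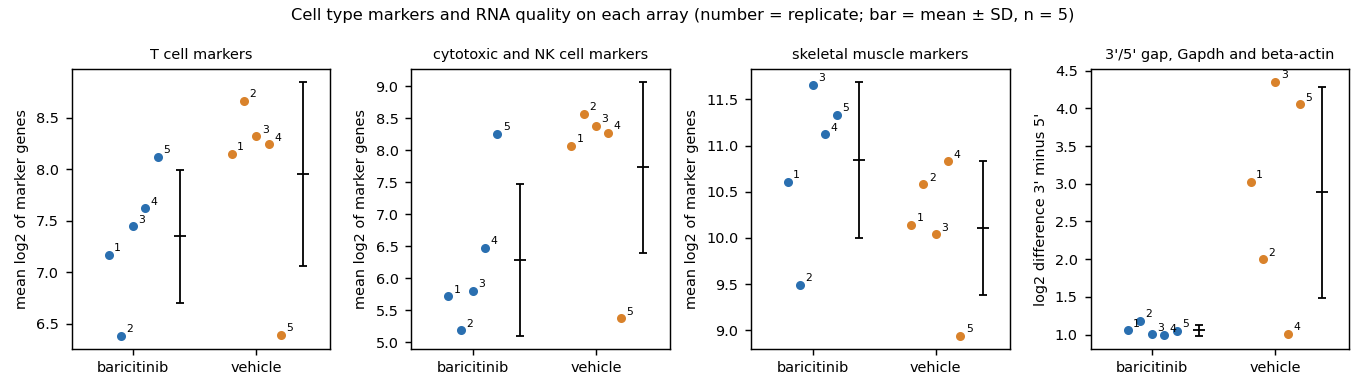
Mean log2 value of T cell, cytotoxic and NK cell and skeletal muscle marker genes, and the log2 excess of 3' over 5' signal of Gapdh and beta-actin transcripts, on each array (baricitinib blue, vehicle orange, replicate number beside each point, black bar the group mean ± SD, n = 5). Baricitinib replicate 5 (8.25) lay among vehicle replicates 1 to 4 for the cytotoxic and NK markers, and its 3' excess (1.05) lay within the range of the other baricitinib arrays.

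Il15 and Il15ra did not separate the groups. Il15 encodes the cytokine that sustains NK and memory CD8 T cells, and its single probe set (1418219_at) was at 7.36, 7.19, 8.35, 7.86 and 8.11 in baricitinib replicates 1 to 5 and at 8.02, 8.03, 8.34, 7.94 and 6.01 in vehicle replicates 1 to 5. The difference was 0.11 with all arrays (95% interval -0.86 to 1.08, limma adjusted p = 0.889) and turned to -0.31 (-0.84 to 0.22, adjusted p = 0.406) without vehicle replicate 5. Baricitinib replicates 1 and 2 were the lowest apart from vehicle replicate 5.

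Il15ra encodes the chain that holds IL-15 at the cell surface and presents it to neighbouring cells. Its brighter probe set (1448681_at) was at 8.74, 7.89, 9.38, 9.37 and 9.50 in baricitinib replicates 1 to 5 and at 9.06, 9.10, 9.47, 9.16 and 7.52 in vehicle replicates 1 to 5. The lowest array of each group, baricitinib replicate 2 and vehicle replicate 5, was apart from the others. The difference was 0.11 (95% interval -0.83 to 1.05), and -0.22 (-0.92 to 0.47) without vehicle replicate 5. The other probe set (1422397_a_at) was at 6.83 to 8.08 in baricitinib treated and 6.33 to 7.75 in vehicle control skin, a difference of 0.45 (95% interval -0.29 to 1.20) and the largest positive value of the axis. It stayed positive when any 1 array was left out (0.24 to 0.66).

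Markers of skeletal muscle, which lies under the skin and expresses IL-15, varied between biopsies. Their difference was negative at 1 gene (Myh4, -0.35) and positive at 3. Acta1, Ckm, Mb and Myh4 averaged 9.49 to 11.66 log2 in baricitinib treated and 8.94 to 10.83 in vehicle control skin, with baricitinib replicate 2 and vehicle replicate 5 the lowest of their groups. Both arrays were also the lowest of their groups for Il15 and for both Il15ra probe sets. The same held for the T cell, cytotoxic and NK cell, regulatory T cell, macrophage and dendritic cell and keratinocyte markers. This order was thus shared by many marker lists. On vehicle replicate 5 the brighter probe sets of the whole array also differed by a median of -0.75 from vehicle replicates 1 to 4. Macrophage and dendritic cell markers, from cells that present IL-15, averaged 7.47 to 8.44 and 6.59 to 8.46, with a negative difference at 4 genes and a positive one at 4. Adipocyte markers (Adipoq, Fabp4 and Lep), with a median difference of 1.63, the largest of the marker lists, averaged 9.88 to 11.44 in baricitinib treated and 8.35 to 9.72 in vehicle control skin and did not overlap. Of the markers of keratinocytes, a source of IL-7 and IL-15, 3 had a negative difference and 1 a positive one. Krt1 was at -1.05 (limma adjusted p = 0.229), and -1.22 without vehicle replicate 5. Krt10 was at -0.46, Krt5 at -0.30 and Krt14 at 0.21, and without vehicle replicate 5 all 4 were negative. None of these marker genes passed the adjusted threshold, and the part of tissue composition in the values of the axis was not tested.

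Il7 encodes the survival cytokine read by Il7r. Its brighter probe set (1436861_at) was at 7.18, 5.27, 7.61, 6.89 and 7.47 in baricitinib replicates 1 to 5 and at 7.80, 7.66, 7.64, 7.07 and 6.25 in vehicle replicates 1 to 5. The groups overlapped, and the single lowest array was baricitinib replicate 2. The difference was -0.40 (95% interval -1.44 to 0.64, limma adjusted p = 0.611), and without baricitinib replicate 2 it was 0.0030. The dimmer probe set (1422080_at) was at 5.04, 3.85, 5.08, 4.65 and 4.96 against 5.25, 5.46, 5.15, 5.14 and 4.55. All baricitinib arrays were below vehicle replicates 1 to 4, but the nearest arrays of the groups were at 5.08 and 5.14, and vehicle replicate 5 lay among the baricitinib arrays. Its difference was -0.39 (limma adjusted p = 0.454) with all arrays and -0.53 (adjusted p = 0.186) without vehicle replicate 5, and -0.18 without baricitinib replicate 2 (adjusted p = 0.643).

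Il2 and Il21, the cytokines of activated T cells, were dim. For reference, 27 control probe sets for bacterial transcripts lay between 1.96 and 4.66 log2, and the deposited values carry no detection call. The Il2 probe set (1449990_at) was at 4.20, 4.02, 3.83, 3.95 and 5.65 in baricitinib replicates 1 to 5 and at 4.28, 4.66, 4.85, 5.61 and 7.02 in vehicle replicates 1 to 5. Baricitinib replicates 1 to 4 were the lowest arrays and vehicle replicate 5 the highest. The difference was -0.96 ± 0.54 (SE, limma adjusted p = 0.399), and it shrank to -0.52 without vehicle replicate 5 (adjusted p = 0.398), the highest array of all.

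Il21 encodes the cytokine of follicular helper and other CD4 T cells that promotes B cell and CD8 T cell responses. Both of its probe sets were within the range of the bacterial controls on every array but 1, vehicle replicate 5 of 1450334_at at 4.92. That probe set was at 3.02 to 3.29 in baricitinib treated and 3.28 to 4.92 in vehicle control skin, a difference of -0.77 (limma adjusted p = 0.273), and -0.52 (adjusted p = 0.087) without vehicle replicate 5. With the RNA quality covariate it was -0.21. The other (1447288_at) was at 3.33, 3.37, 3.13, 3.30 and 3.28 in baricitinib replicates 1 to 5 and at 3.71, 3.51, 3.46, 3.55 and 3.75 in vehicle replicates 1 to 5. It was the only probe set of the axis on which the groups did not overlap over all 10 arrays, with a difference of -0.32 (limma adjusted p = 0.308). Among all probe sets 2.03% were lower and 3.09% higher without overlap, and among the 16285 probe sets averaging under 5 log2 3.84% were lower without overlap. The median difference of such dim probe sets was -0.28 over the whole array, and -0.10 without vehicle replicate 5, and the difference at 1447288_at without that array was -0.28. With quantile normalisation it was -0.10.

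Whether groups overlapped depended on the fifth array of each. Over all 10 arrays 1 of 15 probe sets was lower without overlap and 0 were higher. Without vehicle replicate 5 there were 3 (1 each of Il7, Il7r and Il21), all lower, where 4.11% of all probe sets were lower and 4.42% higher without overlap. The 7 probe sets without overlap over replicates 1 to 4 had to include these 3, since those arrays are a part of the arrays compared here.

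**Figure D4:**
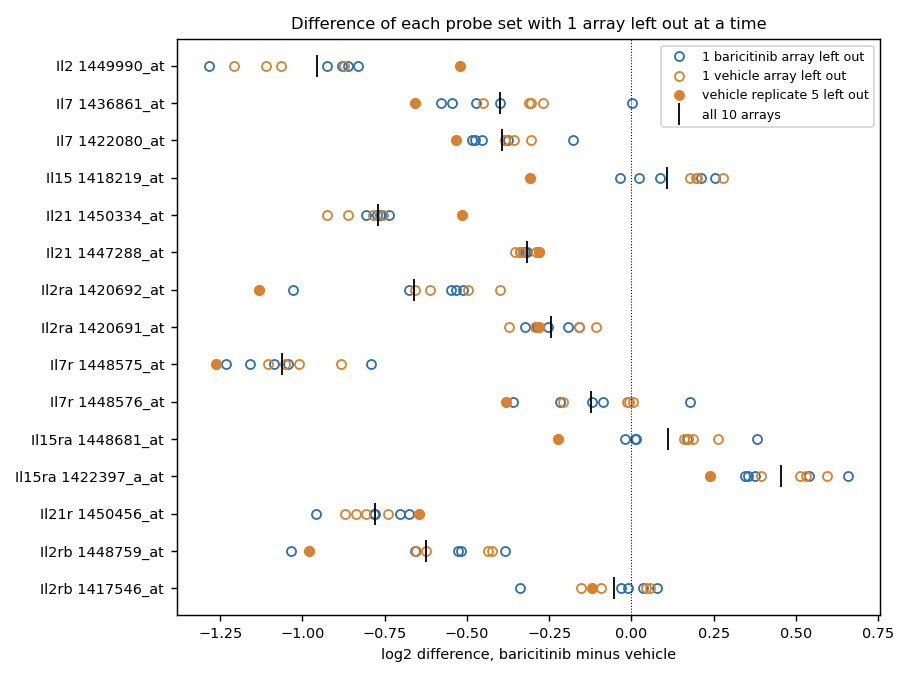
Difference in log2 expression (baricitinib minus vehicle) of each probe set with all 10 arrays (bar) and with 1 baricitinib (blue) or 1 vehicle (orange) array left out at a time, vehicle replicate 5 filled. The brighter Il7r probe set stayed between -1.26 and -0.79, and Il15 crossed 0 (-0.31 to 0.28).

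Other genes of the common gamma chain pathway, listed together with those of thymic stromal lymphopoietin and its receptor (Tslp and Crlf2), had differences of both signs. Of 23 genes, all measured, 0 passed the adjusted threshold in limma, and at an unadjusted p under 0.05 there were 2 lower and 0 higher, where 5.62% of all probe sets were lower and 9.21% higher. Without vehicle replicate 5 there were 6 lower and 0 higher, against 13.5% and 14.4%, and the negative differences numbered 15 of 23, against 10 of 23 with all arrays. Their median difference was 0.10 with all arrays and -0.11 without vehicle replicate 5. Among other ligands and receptors, the subunit gene Crlf2 for the thymic stromal lymphopoietin receptor differed by -0.65 (limma adjusted p = 0.344) and the cytokine gene Il9 by -0.53 (adjusted p = 0.279). Crlf2 was lower in all 5 baricitinib arrays (7.74 to 8.47) than in vehicle replicates 1 to 4 (8.67 to 9.43), and vehicle replicate 5 was at 7.75.

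The 5 kinase and factor genes depended on vehicle replicate 5, with a median difference of 0.26 (2 negative) with all arrays and -0.40 (3 negative) without it. Without it Jak1 and Jak3, the kinases of these receptors, differed by -0.58 and -0.63 (limma adjusted p = 0.0936 and 0.119), from -0.37 and -0.19 with all arrays, and Stat3 turned from 0.26 to -0.40. Stat5a and Stat5b, the factors that these receptors activate, differed by 0.49 and 0.40 (limma adjusted p = 0.539 and 0.468), and by 0.05 and 0.19 without vehicle replicate 5. Of targets and survival genes, Osm, a STAT5-induced cytokine gene, differed by -1.06 (4.49 ± 0.64 against 5.54 ± 0.50, SD, n = 5, limma adjusted p = 0.249). The cyclin gene Ccnd3 differed by 0.90, which became 0.22 without vehicle replicate 5. Of the 58 probe sets of the list, 3 were higher without overlap over all arrays (3.09% of all probe sets were) and 1 lower (2.03% were). Named after their values were seen, the lower one was of Il4ra (-0.67). The 3 higher were 1 of Mcl1 (0.99) and 2 of Bcl2l1, both genes of BCL2 family survival proteins. Bcl2l1 probe set 1426191_a_at was at 7.36 to 7.88 in baricitinib treated and 4.07 to 6.72 in vehicle control skin (difference 2.25, adjusted p = 0.221). The brightest Bcl2l1 probe set differed by 0.19, so the probe sets of this gene disagreed in size. The 3' excess of Gapdh and beta-actin signal also differed between the groups. No Bcl2l1 value with it as a covariate is given here, and its part was not tested. The brightest probe sets of Mcl1 (-0.13) and Il4ra (0.10) had the opposite sign to those without overlap.

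Genes whose values over the 10 arrays were most like those of Il2rb and Il15 were sought among 18192 others, by the root mean square gap between centred log2 values. Nearest to Il2rb were Flt1 (0.241), Itgb7 (0.252), Rnf213 (0.261), Klrk1 (0.270) and Tap1 (0.274), where the median gene had a gap of 0.985. These include an endothelial growth factor receptor gene, an integrin gene of lymphocytes, an NK receptor gene and a gene of MHC class I peptide loading. Nearest to Il15 were Uhrf2 (0.173), Il10rb (0.174), Gfpt1 (0.183), Smpd3 (0.188) and Elk3 (0.202), with a median gap of 0.717. The likeness was measured on all 10 arrays, vehicle replicate 5 among them.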

How the data were processed

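Affymetrix Mouse Genome arrays were run on amplified, biotin-labelled cDNA from total RNA of skin. The authors deposited log2 values for every probe set after RMA of these arrays alone (RMA version not given in the sources used here). The SD over probe sets was 2.28 log2 on vehicle replicate 5 and 2.71 to 2.79 on the other arrays, so RMA left this array with a narrower range. The number of mice limits the precision. After 64 control probe sets were set aside, 45037 were fitted unfiltered by limma (version 3.58.1; R 4.3.3), with moderated two-sided tests adjusted by Benjamini-Hochberg over all of them. Groups and replicate numbers came from the sample titles.

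Every probe set with 1 gene symbol, that of a member, was reported. From the pathway list the 2 genes of largest difference in each of its 3 groups were named, by their brightest probe set. Jak1, Jak3, Stat3 and the genes with probe sets without overlap were named outside this rule. Members and lists were chosen with earlier results of these data known. Alternatives were a filter at 5 log2, median centring, quantile normalisation, array weights, a replicate block, RNA quality as a covariate, trended and robust variance, an exact two-sided permutation test over 252 assignments, and each array left out. Counts on replicates 1 to 4 and by brightness were added after the data were seen. The fit was tested on simulated data with independent normal noise. These held no outlying array and no RNA quality difference between groups, so they cannot show how the fit copes with either.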

Additional observations from a re-analysis of the deposited data

Results flagged for a closer look

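A sample lay far from the other 4 of its group, by Dixon's criterion, in 4 of 30 groups of 5 arrays tested, where chance flags about 5% of groups. In vehicle control skin both were vehicle replicate 5, at 6.01 log2 for Il15 (the others 7.94 to 8.34) and at 7.52 for the brighter Il15ra probe set (9.06 to 9.47). In baricitinib treated skin both were baricitinib replicate 5, at 5.65 for Il2 (the others 3.83 to 4.20) and at 4.97 for the dimmer Il2rb probe set (3.31 to 3.75).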

How the results depend on the processing

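Of the alternatives, 244 values for single probe sets kept sign and side of the threshold, 2 passed it and 18 changed sign, at 6 of the 15 probe sets. With array quality weights 9676 of all probe sets passed (21.5%) and 2 of the axis did, the brighter Il7r probe set (-1.28, adjusted p = 0.016) and Il21 1450334_at (-0.47, adjusted p = 0.040). With 1 array left out the count over all probe sets was 0 to 848, with 848 on leaving out vehicle replicate 4, 12 on leaving out baricitinib replicate 5 and 0 otherwise, and 0 of the axis passed each time. Signs changed for Il15 with weights (-0.43) and with RNA quality as covariate (-0.32), for Il15ra 1448681_at with quantile normalisation (-0.032), weights (-0.26) and the covariate (-0.27), for Il15ra 1422397_a_at with the covariate (-0.053) and for Il2rb 1417546_at with quantile normalisation (0.14). With 1 array left out, values ranged from -0.66 to 0.0030 for Il7 1436861_at, -0.31 to 0.28 for Il15, -0.38 to 0.18 for Il7r 1448576_at, -0.22 to 0.38 for Il15ra 1448681_at and -0.34 to 0.078 for Il2rb 1417546_at. The cause was not tested. With the replicate number as a block 0 probe sets passed, as without it, and 5441 against 6680 were at an unadjusted p under 0.05. Same-numbered arrays did not deviate together (correlations -0.23 to 0.088), and 2 of 10 arrays correlated best with their own number in the other group. These values cannot decide whether the numbers pair samples, since the vehicle mean behind them includes vehicle replicate 5. The labels do not say. After adjustment 0 of 15 passed the exact permutation test, whose adjusted p was 0.155 to 0.985. The filter removed 6 of the 15 probe sets. Median centring moved the median of all differences from -0.07 to -0.14 and the filter to 0.16. At low brightness the values carry no detection limit.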
